A study of Homo sapiens with 8 samples.

Results

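The 44 DNA replication genes described here are the genes for origin licensing, helicase activation, DNA synthesis, Okazaki fragment processing and deoxynucleotide supply, together with E2F factors and fork proteins, given as a list of symbols and matched to the identifiers of the deposited read counts. All 44 were found among the 58688 genes counted, and all 44 passed the filter on low counts, with 58 to 4369 reads in a sample. The cells were LM2, a lung metastatic derivative of the human triple-negative breast cancer line MDA-MB-231. Ponatinib, an inhibitor of ABL and other tyrosine kinases, was given at 1 µmol/L for 6 h (2 samples) and compared with DMSO (2 samples). In a separate set, cells made stable with lentiviral shRNA carried a scrambled control (shCtrl), ABL1 shRNA, ABL2 shRNA or ABL1/ABL2 shRNA, with 1 sample each and therefore no replicates. The labels number the DMSO and Ponatinib samples as repeats without saying whether they were separate cultures, so p-values measure the spread between these samples, which may be technical.

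Replication begins when the origin recognition complex, CDC6 and CDT1 load rings of MCM2 to MCM7 onto DNA in G1. In S phase, MCM10, CDC45 and the GINS subunits turn the loaded rings into active helicases, primase and the polymerases copy the strands, and PCNA, placed by replication factor C, holds the polymerases on DNA. E2F factors, held back by RB until cyclin-dependent kinases release them, activate many of these genes as proliferating cells approach S phase, and tumor lines that divide without pause express most of them.

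Counts on genes summed to between 7568934 and 13010896 reads per sample. The mesenchymal marker VIM lay between 1896 and 3179 CPM (reads scaled to the total of each sample) in the 8 samples, ESR1 was at or below 0.87 CPM, PGR had no read in any sample and ERBB2 was detected at 52.7 to 68.0 CPM. The knockdown targets were lower in the samples labeled for them. ABL1 was at 190.1 normalized CPM in shCtrl, 72.7 with ABL1 shRNA and 109.4 with both shRNAs, and ABL2 was at 236.5 in shCtrl, 93.3 with ABL2 shRNA and 147.8 with both. The tables of shCtrl and ABL1 shRNA carry each other's condition in their column headers, while the ABL1 levels go with the sample labels, which were used. Unless stated otherwise, levels below are CPM scaled by edgeR's TMM factors within each set, and no level was compared between the 2 sets.

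Per kilobase of exon, the replication genes spanned a wide range in DMSO-treated cells. The length is the union of all exons annotated for a gene, which is longer than most of its transcripts, and the order of the genes depends on it. The sliding clamp PCNA was highest at 135 CPM per kilobase, followed by the flap endonuclease FEN1 at 124, thymidine kinase TK1 at 110 and MCM3 at 105. The lowest were the polymerase alpha subunits POLA2 at 1.98 and POLA1 at 2.82, with E2F2, the lowest by CPM alone, between them at 2.31. The 6 subunits of the MCM ring, which act in equal number in the protein complex, were unequal as mRNA, with MCM3 at 105, MCM7 at 67.8, MCM2 at 39.8, MCM4 at 26.1, MCM6 at 24.5 and MCM5 at 16.5 CPM per kilobase. The GINS subunits were low throughout, from 4.07 for GINS3 to 9.79 for GINS2.

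The letters before the transcription starts of several replication genes hold words that E2F factors are known to bind. RefSeq promoter windows on GRCh38.p14, running from 250 bases before to 50 bases after a start, were found for 39 of the 44 genes, and MCM4, MCM5, GINS4, POLD3 and E2F8 had no entry. The 120 bases before the start are shown for UHRF1, which had the largest fall with Ponatinib, GINS2, the gene farthest below control with ABL2 shRNA, E2F1, and MCM6, which behaved differently from the other MCM genes. Sequences run 5′ to 3′ on the strand of the gene and capitals mark E2F words. UHRF1 lies at chr19:4909381-4909500 on the plus strand (the most upstream of its 3 listed starts), GINS2 at chr16:85688955-85689074, E2F1 at chr20:33686386-33686505 and MCM6 at chr2:135876444-135876563, the last 3 on the minus strand.
UHRF1: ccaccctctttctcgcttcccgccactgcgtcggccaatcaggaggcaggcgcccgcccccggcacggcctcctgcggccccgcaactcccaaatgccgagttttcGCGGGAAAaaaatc
GINS2: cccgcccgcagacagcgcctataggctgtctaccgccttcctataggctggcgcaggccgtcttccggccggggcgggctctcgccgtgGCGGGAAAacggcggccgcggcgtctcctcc
E2F1: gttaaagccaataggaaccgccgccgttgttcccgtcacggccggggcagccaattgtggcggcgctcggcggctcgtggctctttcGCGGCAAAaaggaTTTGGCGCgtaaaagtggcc
MCM6: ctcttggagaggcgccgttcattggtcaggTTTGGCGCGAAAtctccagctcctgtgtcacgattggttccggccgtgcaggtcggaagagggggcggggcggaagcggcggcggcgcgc

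The words searched were TTTGGCGC, TTTCCCGC, TTTGCCGC and TTTCGCGC, on both strands. The capitals of MCM6 are 2 overlapping words on opposite strands, and the same gene holds 2 more farther upstream in its window. An E2F word stood in a listed window of 21 of the 39 replication genes (53.8%), against 3.99% of 27305 genes in the RefSeq table and 6.65% of the 10483 of them that were tested. Of the genes lower with Ponatinib 9 of 15 held one (60%), and of the other replication genes 12 of 24 (50%). MCM10, FEN1 and RRM2 were among the lower genes that held none. Of the UHRF1 starts, only the one shown has a word within the 120 bases before it. The CCAAT box, the letters bound by NF-Y, stood in 24 of 39 (61.5%), against 39.7% of the table and 43.4% of the tested genes. It stood in 13 of the 15 lower genes and 11 of the 24 others. The CHR word TTTGAA, known from late cell cycle promoters, stood in 1 of 39, against 18.2% of the table and 13.8% of the tested genes. A match describes the letters only, and binding was not measured.

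Part of the replication genes were lower with Ponatinib, by modest amounts. At an adjusted p under 0.05 (edgeR's quasi-likelihood test, Benjamini-Hochberg adjustment over 16031 genes), 18 of 44 were lower, beside 15.7% of all genes tested, 1 was higher, beside 15%, and 25 did not pass. The median log2 change of the 44 was -0.20, against -0.0047 for all genes tested. Among the 9760 genes with a mean at or above that of the lowest replication gene, 21.4% were lower and the median was -0.02. Of the 44, 36 had a log2 change below 0, as had 50.6% of all genes. Both Ponatinib samples lay under both DMSO samples for 32 of the 44 (32.8% of all genes) and above them for 3 (32.1% of all genes). With the thresholds of the study's methods, a fold over 2 and an unadjusted P under 0.05, no replication gene passed in edgeR, beside 5.48% of all genes, while 27 had an unadjusted P under 0.05 (40.6% of all genes), 25 of them lower (20.7%). DESeq2 at an adjusted p under 0.05 called 12 lower, beside 10% of all genes, and none higher, beside 8.27%. Reads on the 44 genes took 0.5084% and 0.4998% of all counts in the DMSO samples and 0.4403% and 0.4332% in the Ponatinib samples, so that the summed share with Ponatinib was 0.866 of that with DMSO, with no overlap between the groups. In bulk RNA, fewer cells in S phase and less of these mRNAs per cell cannot be told apart.

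**Figure D1:**
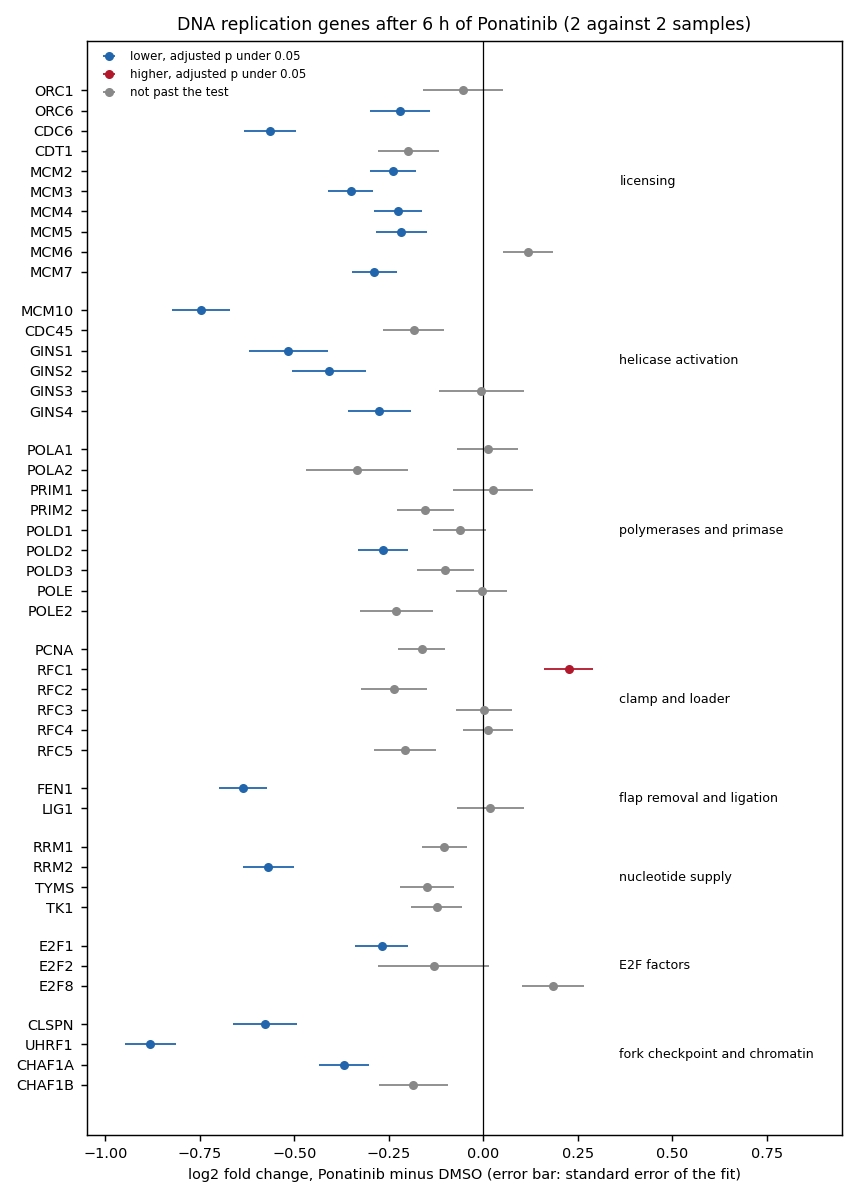
Log2 fold change of each of the 44 replication genes, Ponatinib minus DMSO (x axis), grouped by role (y axis). Points are edgeR estimates from 2 against 2 samples, bars are standard errors (SE), blue and red mark adjusted p under 0.05, and 18 points are blue, 1 (RFC1) is red and 25 are gray.

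Licensing genes were lower in 7 of 10, with a median log2 change of -0.22. CDC6, the loader of the MCM ring (chromosome 17, 40287879 to 40304657, GRCh38), went from 175.8 and 167.3 CPM in DMSO to 121.9 and 109.6 with Ponatinib. Both treated samples lay well under both controls, a log2 change of -0.56 (standard error, SE, 0.069, edgeR adjusted p = 1.97e-05). MCM3 went from 386.7 and 396.1 to 313.6 and 299.9 CPM, a log2 change of -0.35 (edgeR adjusted p = 3.76e-04). MCM7 went from 347.8 and 336.7 to 285.7 and 274.5, at -0.29 (edgeR adjusted p = 0.0019). Neither gene's groups overlapped, and the same held for the smaller falls of 3 further ring subunits. MCM2 went from 190.7 and 191.8 to 164.1 and 159.6 CPM (log2 fold change -0.24, edgeR adjusted p = 0.00769). MCM4 went from 269.1 and 255.3 to 217.2 and 231.9 (-0.23, edgeR adjusted p = 0.0137), and MCM5 from 117.2 and 127.1 to 105.6 and 104.3 (-0.22, edgeR adjusted p = 0.024). The sixth subunit of the ring, MCM6, did not follow the other 5. Its levels were 105.8 and 100.6 CPM in DMSO and 113.7 and 110.2 with Ponatinib, so the treated samples were the higher ones, at a log2 change of 0.12 that did not pass (edgeR adjusted p = 0.194). ORC6, a subunit of the origin recognition complex, went from 54.4 and 53.3 to 44.9 and 47.8 CPM and was the call nearest the threshold (log2 fold change -0.22, edgeR adjusted p = 0.0467). ORC1, an ATP-binding subunit of that complex, was at -0.05 with overlapping groups (edgeR adjusted p = 0.743). CDT1, the partner of CDC6 in loading, was at -0.20 and did not pass (edgeR adjusted p = 0.078).

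Helicase activation genes were lower in 4 of 6 with a median log2 change of -0.34. MCM10, which helps to switch on the loaded helicase (chromosome 10, 13161558 to 13211110), went from 104.1 and 98.5 CPM to 63.6 and 56.6. Its treated samples were 40.4% under the controls by the fitted fold, a log2 change of -0.75 (SE 0.076, edgeR adjusted p = 2.71e-06). Among the 4 subunits of GINS, which joins CDC45 to the MCM ring, GINS1 went from 40.8 and 43.9 to 32.2 and 26.3 CPM, a log2 change of -0.52 (SE 0.10, edgeR adjusted p = 0.00149). GINS2 went from 32.3 and 31.9 to 24.8 and 23.4, at -0.41 (edgeR adjusted p = 0.00551). GINS4 went from 46.8 and 46.3 to 39.1 and 37.7, at -0.28 (edgeR adjusted p = 0.0204). These 3 subunits fell with no overlap between groups, whereas GINS3, at 20.3 and 22.1 CPM in DMSO and 20.8 and 21.3 with Ponatinib, overlapped (log2 fold change -0.0054, edgeR adjusted p = 0.979). CDC45 was at -0.18 and did not pass (edgeR adjusted p = 0.0959).

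**Figure D2:**
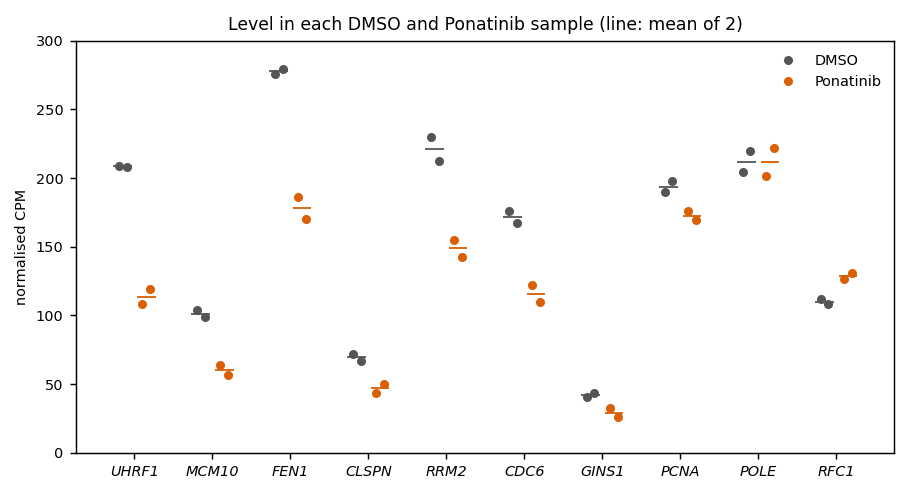
Normalized CPM (y axis, linear) of 10 replication genes in each of 2 DMSO and 2 Ponatinib samples, with lines at the means. The Ponatinib points of UHRF1, MCM10, FEN1, CLSPN, RRM2, CDC6 and GINS1 lie under the DMSO points, those of PCNA a little under them, those of POLE on both sides of them and those of RFC1 above them.

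The genes that copy the strands moved less. Of 9 polymerase and primase genes only POLD2, a small subunit of the lagging strand polymerase delta, passed the test, going from 114.1 and 107.7 to 92.7 and 91.9 CPM (log2 fold change -0.27, edgeR adjusted p = 0.00715). The catalytic subunit of the leading strand polymerase, POLE, had 204.5 and 219.6 CPM in DMSO and 201.6 and 221.8 with Ponatinib, a log2 change of -0.0040 with overlapping groups (edgeR adjusted p = 0.98). The catalytic subunits POLA1 (log2 fold change 0.01) and POLD1 (-0.06), the primase subunits PRIM1 (0.03) and PRIM2 (-0.15), and the accessory subunits POLD3 (-0.10), POLE2 (-0.23) and POLA2 (-0.33) did not pass. PCNA went from 189.5 and 197.6 to 175.8 and 169.6 CPM, without overlap but at a log2 change of -0.16 that missed the threshold (edgeR adjusted p = 0.0597). Of the replication factor C subunits that load it, RFC1, the large subunit, went from 111.7 and 108.1 to 126.3 and 131.1 CPM. It was the replication gene that rose (log2 fold change 0.23, SE 0.065, edgeR adjusted p = 0.0155). The 4 small subunits did not pass, with log2 fold changes of -0.24 for RFC2, 0.0020 for RFC3, 0.01 for RFC4 and -0.21 for RFC5. The summed share of counts of the clamp and its loader was 0.999 of that in DMSO, and its samples overlapped.

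Okazaki fragment processing and nucleotide supply were each represented by 1 gene that fell beside others that did not pass. FEN1, which removes the displaced RNA-DNA flap (chromosome 11, 61792911 to 61797238), went from 276.0 and 279.3 to 186.3 and 170.2 CPM. The groups stood far apart relative to their spread, with a log2 change of -0.64 (SE 0.064, edgeR adjusted p = 2.62e-06). LIG1, the ligase that seals the nick after FEN1, had 75.4 and 79.1 CPM in DMSO and 85.9 and 69.4 with Ponatinib, on both sides of the controls (log2 fold change 0.02, edgeR adjusted p = 0.901). RRM2, the small subunit of ribonucleotide reductase, went from 229.7 and 212.2 to 155.2 and 142.3 CPM, a log2 change of -0.57 (SE 0.068, edgeR adjusted p = 1.55e-05). The large subunit, RRM1, was at 356.9 and 339.3 and then at 323.8 and 324.3 CPM, a log2 change of -0.10 (edgeR adjusted p = 0.21). Thymidylate synthase TYMS was at -0.15 and thymidine kinase TK1 at -0.12, and neither passed. TYMS overlaps ENOSF1 on the opposite strand, and the counting setting for strand is not given in the sources used here, so its value may include reads of that neighbor.

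The largest fall was of UHRF1, which reads hemimethylated DNA behind the fork and recruits the maintenance methyltransferase (chromosome 19, 4903080 to 4962154). It went from 209.0 and 207.9 CPM to 108.0 and 119.0, a log2 change of -0.88 (SE 0.067, edgeR adjusted p = 1.39e-07), or 45.7% lower by the fitted fold. CLSPN encodes claspin, which carries the checkpoint signal from ATR to CHK1 at the fork, and went from 72.1 and 66.7 to 43.73 and 49.98 CPM (log2 fold change -0.58, SE 0.085, edgeR adjusted p = 1.06e-04). CHAF1A, the large subunit of chromatin assembly factor 1, went from 123.2 and 128.6 to 99.2 and 95.4 CPM (-0.37, edgeR adjusted p = 5.67e-04). Its partner CHAF1B was at -0.19 and did not pass (edgeR adjusted p = 0.143). Among the E2F factors, the activator E2F1 went from 102.5 and 100.2 to 80.8 and 87.9 CPM, lower in both treated samples (-0.27, edgeR adjusted p = 0.0082). The activator E2F2, with the lowest mean of the 44, was at -0.13 with overlapping groups. The repressor E2F8 had 40.4 and 40.5 CPM in DMSO and 45.0 and 47.1 with Ponatinib, on the higher side, at 0.18 (edgeR adjusted p = 0.108).

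Of the 19 calls, 9 also passed in DESeq2 and in 8 other edgeR fits (other size factors, 2 other filters on low counts, a replicate block and each of the 4 samples left out), namely CDC6, MCM3, MCM10, GINS1, FEN1, RRM2, CLSPN, UHRF1 and CHAF1A. A fit without 1 sample takes its spread from the pair left in the other group and assumes that the lone sample varies alike, so that passing there is weak support. Without DMSO replicate 1, 9 genes were lower, none higher, and 8.71% of all genes were lower. ORC6, MCM2, MCM4, MCM5, GINS4, RFC1 and E2F1 lost their calls without DMSO replicate 1 and also without DMSO replicate 2. MCM7, GINS2 and POLD2 lost theirs without DMSO replicate 1. DESeq2 did not call ORC6, MCM5, GINS2, GINS4, POLD2, RFC1 or E2F1.

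Genes of neighboring pathways, from hand-written lists, moved in the same comparison as follows. Of all genes tested, 15.7% were lower and 15% higher. Among genes with a mean at or above that of the lowest replication gene, these shares were 21.4% and 17.8%. Of 30 other replication factors 7 were lower and none higher, with a median log2 change of -0.14. The largest falls among them were of the topoisomerase TOP1 (-0.69, edgeR adjusted p = 1.80e-06), the fork protection factor TIPIN (-0.62, edgeR adjusted p = 7.92e-04), DTL, the substrate adaptor that leads to CDT1 destruction (-0.50, edgeR adjusted p = 4.50e-05), and the MCM binding protein MCMBP (-0.48, edgeR adjusted p = 2.50e-05). Of 18 further nucleotide supply genes 9 were lower and 1 higher. CTP synthase CTPS1 (-0.88), PPAT, the first enzyme of purine synthesis (-0.80), and UMPS, which makes UMP (-0.57), fell, while RRM2B, the p53-inducible small subunit of ribonucleotide reductase, rose (0.57), all at an edgeR adjusted p of 3.28e-04 or less. RRM2B was at 31.4 and 33.8 CPM in DMSO and 45.7 and 51.5 with Ponatinib, opposite to RRM2. Of 9 replication-coupled chromatin genes 5 were lower and 1 higher, led by the histone chaperone ASF1A (0.60), CDCA7 (-0.59), ASF1B (-0.46) and the histone mRNA binding protein SLBP (-0.43). Of 9 S phase checkpoint genes 1 was lower (ATRIP, the partner of ATR, -0.64) and 2 were higher, the clamp loader RAD17 (0.56) and the kinase WEE1 (0.19).

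Of 13 G1/S control genes 8 were lower and 3 higher, with a median log2 change of -0.23, and the 4 with the largest changes were all lower. CCNE1, a cyclin that drives CDK2, went from 14.96 and 12.25 to 5.13 and 2.86 CPM (log2 fold change -1.72, edgeR adjusted p = 2.68e-05). CCND1, the cyclin partner of CDK4 and CDK6, went from 970.5 and 970.4 to 318.7 and 318.3 (-1.61, edgeR adjusted p = 4.55e-11). The CDK-activating phosphatase CDC25A was at -1.39 (edgeR adjusted p = 2.85e-08) and CCNE2 at -1.13 (edgeR adjusted p = 4.33e-06). Of 15 other E2F, RB and DREAM genes 6 were lower and 2 higher, led by E2F5 (-0.76), E2F3 (-0.76), E2F4 (-0.55) and the pocket protein RBL2 (0.43). Of the 20 G2/M genes 5 were higher, 1 was lower and 14 did not pass, with a median log2 change of 0.08. Their summed share of counts was 1.121 of that in DMSO. TTK (0.37), NUSAP1 (0.34) and CENPF (0.29) rose and CDC20 (-0.36) fell. Whether a change in the cell cycle profile has a part in the values of the replication genes was not tested.

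**Figure D3:**
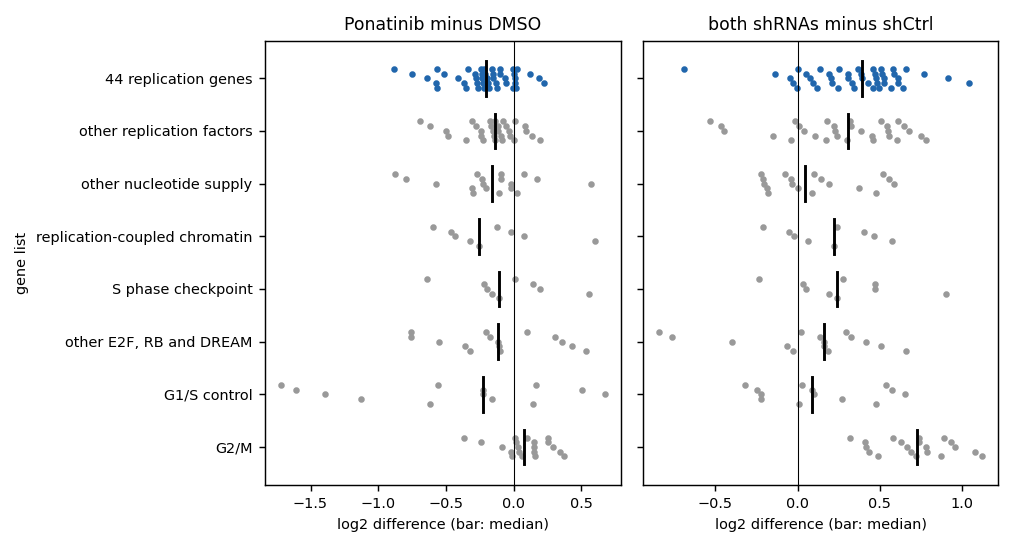
Log2 differences (x axes) of the 44 replication genes (blue) and of 7 neighboring gene lists (gray, y axis), for Ponatinib against DMSO (left, 2 against 2 samples) and for ABL1/ABL2 shRNA against shCtrl (right, 1 sample each). Points are genes and vertical bars medians, and the replication genes have a median of -0.20 on the left and 0.39 on the right while G2/M genes have 0.08 and 0.73.

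The knockdown comparisons ask whether lowering the ABL kinases changes the same genes. Each is a ratio of 1 sample to the same shCtrl sample, so none has a replicate check and the 3 are not independent. Intervals given with them are exact 95% intervals from the 2 counts and cover counting error only. In the shRNA samples most replication genes lay above the control, against the direction seen with Ponatinib. The median log2 ratio of the 44 was 0.33, 0.21 and 0.39 for ABL1 shRNA, ABL2 shRNA and the double knockdown, against -0.0013, -0.01 and -0.0037 over all genes. In the same order, intervals lay above 0 for 29, 21 and 30 replication genes, against 21.5%, 18.8% and 20.1% of all genes, and below 0 for 2, 3 and 1, against 23.3%, 21.8% and 21.7%. Of genes with at least as many reads as the lowest replication gene, 28.3%, 23.5% and 25.8% had intervals above 0. Their summed share of counts was 0.240% in shCtrl and higher in each knockdown sample, at 0.310% (ABL1), 0.280% (ABL2) and 0.320% (both). Above shCtrl were 36, 36 and 39 of the 44, against 49.9%, 48.6% and 49.6% of all genes. Of the 18 that were lower with Ponatinib, 15, 14 and 17 were above it, about as often as among the 44.

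With ABL1 shRNA, 11 replication genes were more than 1.5-fold above shCtrl (12.8% of 17027 genes were) and 1 was more than 1.5-fold below it (12.2%). Of genes with at least as many reads as the lowest replication gene, 7.13% were above and 7.79% below by that much. CDT1 (chromosome 16, 88803789 to 88809258) had 25.2 CPM in shCtrl, 56.0 in ABL1 shRNA cells, 29.8 in ABL2 shRNA cells and 51.9 in double-knockdown cells. The 2 samples that carry ABL1 shRNA stood apart from the other 2, at log2 ratios to shCtrl of 1.15 (0.95 to 1.36) and 1.04 (0.84 to 1.25), against 0.24 with ABL2 shRNA. MCM4 had 90.9, 177.8, 144.1 and 171.2 CPM in the same order and was the gene above 1.5-fold in all 3 knockdowns, at 0.97, 0.67 and 0.91. E2F2 had 5.11, 9.32, 7.77 and 7.16 CPM, at 0.86 (0.40 to 1.34) with ABL1 shRNA, a wide interval from 58 reads in shCtrl. The others past 1.5-fold were RFC4 (0.85), GINS1 (0.83), ORC6 (0.81), CDC45 (0.73), MCM10 (0.66), GINS4 (0.61), PCNA (0.60) and MCM7 (0.59).

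Among the 44, MCM6 and E2F1 had intervals below 0 with ABL1 shRNA, E2F1 at -0.37 (-0.55 to -0.18). Only MCM6 was more than 1.5-fold below shCtrl. MCM6 had 71.1 CPM in shCtrl, 38.8 in ABL1 shRNA cells, 75.1 in ABL2 shRNA cells and 44.1 in double-knockdown cells. The 2 samples with ABL1 shRNA were thus the low ones. The log2 ratios to shCtrl were -0.87 (-1.04 to -0.71) with ABL1 shRNA and -0.69 (-0.85 to -0.53) with both. Without shCtrl, the double knockdown against ABL2 shRNA was at -0.77. In the same 2 samples its ring partners MCM3, MCM4 and MCM7 were above shCtrl, and MCM5 was at -0.10 and 0.05 with intervals that hold 0. Outside the 44, RPA1 (-0.89), POLE3 (-0.73) and POLE4 (-1.41) were also more than 1.5-fold below shCtrl with ABL1 shRNA. With both shRNAs these were at -0.53, -0.45 and -0.47, and with ABL2 shRNA at -0.30, -0.0072 and -0.15. Of the 30 other replication factors, 5 were above shCtrl by that much with ABL1 shRNA. With 1 hairpin for ABL1, an effect of the hairpin itself and one of lower ABL1 cannot be told apart.

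**Figure D4:**
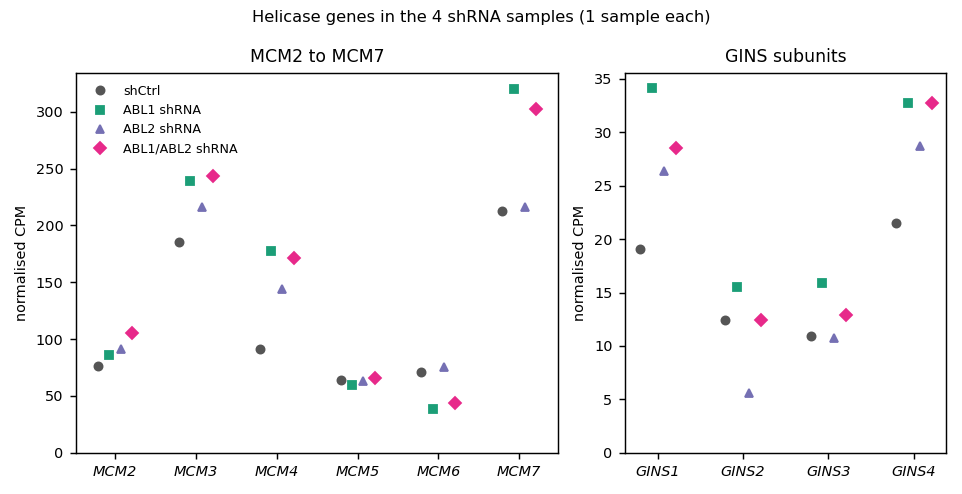
Normalized CPM (y axes, linear) of MCM2 to MCM7 (left) and of the 4 GINS subunits (right) in the 4 shRNA samples, 1 point per sample. MCM6 is low in the 2 samples with ABL1 shRNA (38.8 and 44.1), and GINS2 is low with ABL2 shRNA alone (5.63).

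With ABL2 shRNA, 3 replication genes were more than 1.5-fold above shCtrl (12% of 16967 genes) and 1 was below it (9.15%), with 5.76% and 4.69% among genes with as many reads. The gene below was GINS2 (chromosome 16, 85676198 to 85690073), at 12.4 CPM in shCtrl, 15.6 in ABL1 shRNA cells, 5.63 in ABL2 shRNA cells and 12.4 in double-knockdown cells. Its ABL2 shRNA sample alone was low, with 71 reads, at a log2 ratio of -1.14 (-1.57 to -0.72). The double knockdown had GINS2 at 0.0019 (-0.34 to 0.34), and ABL1 shRNA against ABL2 shRNA was at 1.46. ABL2 was lowered less in the double knockdown, to 147.8 CPM, than with ABL2 shRNA, to 93.3 CPM, from 236.5 CPM in shCtrl. The cause of the low GINS2 level was not tested. For E2F1 the single knockdowns lay on opposite sides of shCtrl, with 45.8 CPM in shCtrl and 35.5, 69.7 and 48.3 CPM in ABL1, ABL2 and double-knockdown cells. Its log2 ratios were -0.37 (-0.55 to -0.18), 0.61 (0.45 to 0.77) and 0.08 (-0.09 to 0.25). The other genes above 1.5-fold were MCM4 (0.67) and E2F2 (0.60). UHRF1 was on opposite sides as well, at 0.26 (0.14 to 0.39) with ABL1 shRNA and -0.23 (-0.37 to -0.10) with ABL2 shRNA, and at 0.42 with both. RRM2 was at 0.06, with an interval that holds 0, and at -0.26 (-0.40 to -0.12) and 0.14 in the same order.

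With ABL1/ABL2 shRNA, 8 replication genes were more than 1.5-fold above shCtrl (12.1% of 16890 genes) and MCM6 alone was below it (10.4%), with 6.3% and 5.97% among genes with as many reads. They were CDT1 (1.04), MCM4 (0.91), ORC6 (0.77), RFC4 (0.66), the polymerase delta catalytic subunit POLD1 (0.64), CLSPN (0.61), GINS4 (0.61) and MCM10 (0.59). ORC6 had 27.3 CPM in shCtrl and 48.0, 31.5 and 46.4 CPM in ABL1, ABL2 and double-knockdown cells, the same split between samples as CDT1. POLD1 had 35.8, 44.4, 47.5 and 55.9 CPM and was highest with both shRNAs. RFC4 had 36.6, 66.0, 47.3 and 57.8 CPM and was lowest in shCtrl. RFC1, the gene that rose with Ponatinib, was nearly level in all 4 samples at 105.2 to 112.7 CPM.

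**Figure D5:**
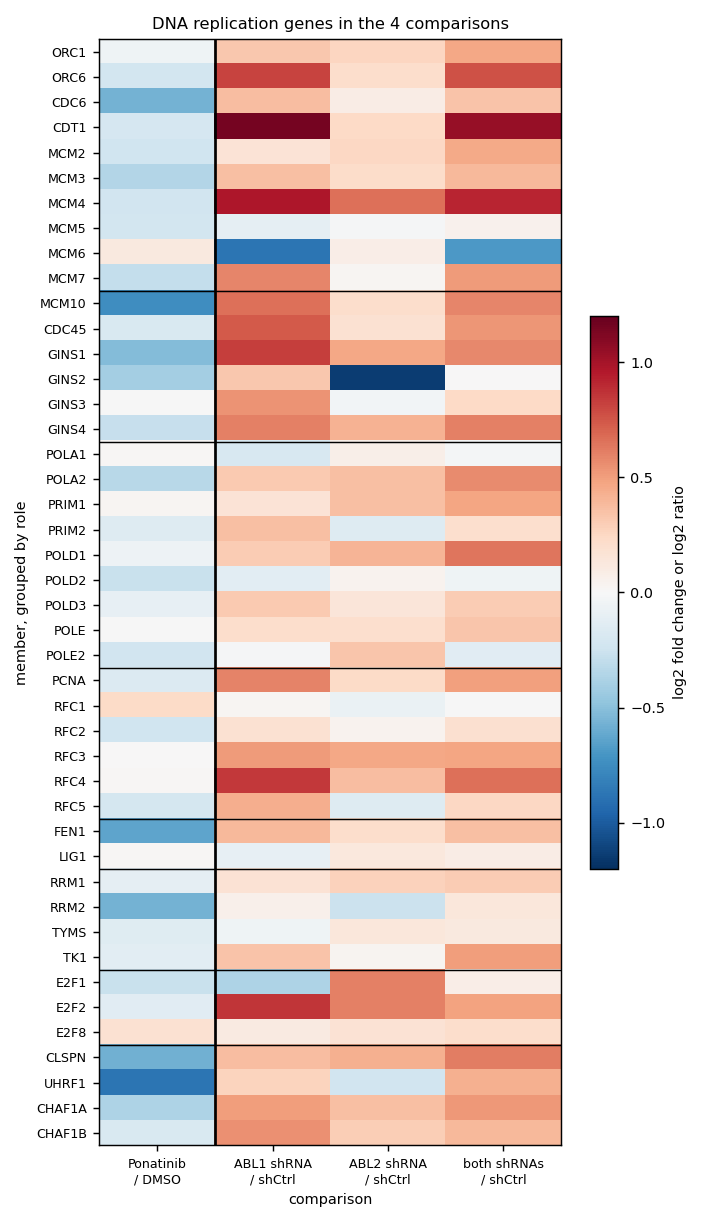
Color-coded log2 differences of the 44 replication genes (rows, by role) in 4 comparisons (columns), with the Ponatinib fold change left of the thick line and the ratios of the 3 knockdowns to one shCtrl sample right of it. Blue is lower and red higher than the control, and the darkest blue cells of the knockdown columns, in which 8, 8 and 5 of the 44 are below 0, are MCM6 with ABL1 shRNA or both and GINS2 with ABL2 shRNA.

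Since the 3 ratios divide by 1 sample, the level of shCtrl bears on all of them. It was the lowest of the 4 shRNA samples for 29 of the 44 replication genes (65.9%), against 28.4% of 19057 genes with at least 10 reads, and no replication gene was below shCtrl in all 3 knockdowns. A low shCtrl sample and an effect shared by the 3 knockdowns cannot be told apart. In ratios that leave shCtrl out, 29 of the 44 were higher and 15 lower with ABL1 shRNA than with ABL2 shRNA (50% of all genes were higher), with a median log2 ratio of 0.16. Intervals lay above 0 for 21 of the 44 and below 0 for 8, against 22.2% and 21.8% of all genes. Of genes with at least as many reads as the lowest replication gene, 31.1% and 28.9% had such intervals. The double knockdown against ABL2 shRNA had 36 of the 44 higher (50.3% of all genes were) and a median of 0.18. CDT1 was at 0.91 and 0.80 in these ratios, E2F1 at -0.97 and -0.53 and MCM6 at -0.95 and -0.77. G2/M genes split in the same way, with 14 of 20 more than 1.5-fold above shCtrl with ABL1 shRNA, 14 of 20 with both and none with ABL2 shRNA, and summed shares 1.687, 1.691 and 1.075 of that in shCtrl. The part of these genes' shift in the ratios of the replication genes was not tested. Of the 30 other replication factors, 5, 1 and 6 were more than 1.5-fold above shCtrl in the ABL1, ABL2 and double knockdown. The shares of all genes were 12.8%, 12% and 12.1%. Below shCtrl by that much were 3, 0 and 0 of the 30, against 12.2%, 9.15% and 10.4% of all genes.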

How the data were processed

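Libraries of LM2 RNA were sequenced, and according to the submitters' processing notes and the study's methods the authors mapped reads to hg38 with TopHat and counted them with HTSeq 0.6.0. The deposited values are raw read counts per gene, without normalization. Of the counts of shRNA samples, 15.7% to 16.0% are in entries that name no gene, which were left out. Annotation and strand setting are not given in the sources used here.

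Ponatinib was compared with DMSO by edgeR 4.0.16 in R 4.3.3 (TMM, filterByExpr, quasi-likelihood test, prior count 0.125, no covariate), with calls at a Benjamini-Hochberg adjusted p under 0.05 over all genes tested. Knockdowns had 1 sample each, so normalized CPM with 0.5 counts added was divided by shCtrl, without a test, over genes with at least 10 counts in both samples together. Counting intervals are exact binomial ones. A count of 3, taken as the detection floor, is at most 0.396 CPM. Exon lengths and positions are from GENCODE v44, promoters from RefSeq. Replicates of a group differed beyond sampling noise (chi-square per degree of freedom 1.441 for DMSO, 3.124 for Ponatinib). All 44 genes are named. Values per sample are given for calls with Ponatinib and the largest ratios of each knockdown, and for other lists up to 4 of the largest calls. Further values in single samples were added after seeing them. The genes, lists and tests were chosen with earlier results of these data known. Scripts were tested on simulated data. Alternatives were other scalings, filters and prior counts, DESeq2 1.42.0, a replicate block, the study's thresholds, an 8-sample edgeR fit for knockdowns, and omitting 1 DMSO or Ponatinib sample at a time.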

Additional observations from a re-analysis of the deposited data

How the results depend on the processing

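None of the 19 Ponatinib calls changed sign in the 8 other edgeR fits or in DESeq2. Leaving out 1 DMSO or Ponatinib sample put the median log2 change of the 44 between -0.15 and -0.23. The medians of all genes in these fits lay between -0.0051 and 0.0042. DESeq2 called 12 lower and 0 higher, and a fold over 2 with an unadjusted P under 0.05 gave 0 lower and 0 higher in edgeR. Scaling by library totals moved the median of all genes to 0.04. It gave 16 lower and 2 higher, beside 13% and 17.9% of all genes. With a replicate block 19 were lower and 1 higher (median -0.20), beside 16% and 15.1% of all genes, and ORC6 lost its call. Same-numbered samples did not deviate together (correlation 0.0096 across 11151 genes), so the numbers were not used as pairs. For the knockdowns, a cutoff of 2-fold was passed by CDT1 with ABL1 shRNA (1.15) and with both (1.04), and by GINS2 with ABL2 shRNA (-1.14). The share of all genes past 2-fold was not computed. An edgeR fit of all 8 samples, in which only the DMSO and Ponatinib samples have repeats, called 24, 10 and 23 of the 44. In the order ABL1, ABL2 and double knockdown, 22, 9 and 22 of these were higher. The fit applies the spread of the drug samples to single shRNA samples, and the share of all genes it called was not computed. These counts therefore do not set the 44 apart from other genes. Why they differ from the counts past 1.5-fold was not tested. The median log2 ratio of the 44 in this fit was 0.34, 0.22 and 0.39, against 0 for all genes. Depth limits E2F2 most, with 58 reads in shCtrl.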
